A study of Rousettus aegyptiacus with 32 samples.

Results

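A total of 2012 genomic regions of the Egyptian fruit bat, Rousettus aegyptiacus, were strongly open in testis of both animals examined and were listed in no other tissue. They were chosen by the strength and presence of ATAC-seq peaks. A region had to overlap 1 of the 50000 strongest intervals, ranked by -log10 p, in each of the 2 testis libraries, and no interval of any rank in the other 18 libraries. They came from 28871 regions strong in both testis libraries, and the 20 peak lists together form 856519 separate regions. ATAC-seq maps open chromatin through the DNA that a transposase can reach, and here it was done on nuclei from cryopreserved tissue of bats 1 and 3, both adult males. The 10 tissues were testis, liver, pectoralis muscle, cerebellum, the caudate and putamen of the striatum, and 4 cortical areas: secondary auditory (2A), premotor (PreM), and the orofacial (ofM1) and wing (wM1) parts of primary motor cortex. No treatment, strain or genotype is given for either animal, their ages are given only as adult, and each tissue has 1 library per animal.

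Testis is dominated by germ cells on their way from spermatogonia through meiosis to spermatids, supported by Sertoli cells within the tubules and by hormone-producing Leydig cells between them. Germ cells repackage their chromatin during this course, replacing most histones in late spermatids, and testis is known for transcribing many genes that other organs keep silent. An open region marks a promoter, an enhancer or another place where proteins displace nucleosomes, and a region open in 1 organ is more often a distal element than a shared promoter. The libraries were made from whole tissue, so a region open in few cells and one that is weakly open in many cannot be told apart. The gene table used here names no scaffold for any of its 36769 genes. For this reason no region is placed in or beside a gene, no sequence is printed, and the testis label was not checked against germ cell markers.

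Most regions strong in both testis libraries were listed in every tissue, and few were limited to testis. Of the 69411 regions strong in either testis library, 28871 were strong in both (41.6%), and 2012 of those (6.97%) had no interval elsewhere. A further 16078 (55.7%) had an interval in each of the 9 other tissues. Between these ends the counts ran from 2214 regions shared with 1 other tissue down to 520 shared with 5, and rose again to 2266 shared with 8.

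**Figure D1:**
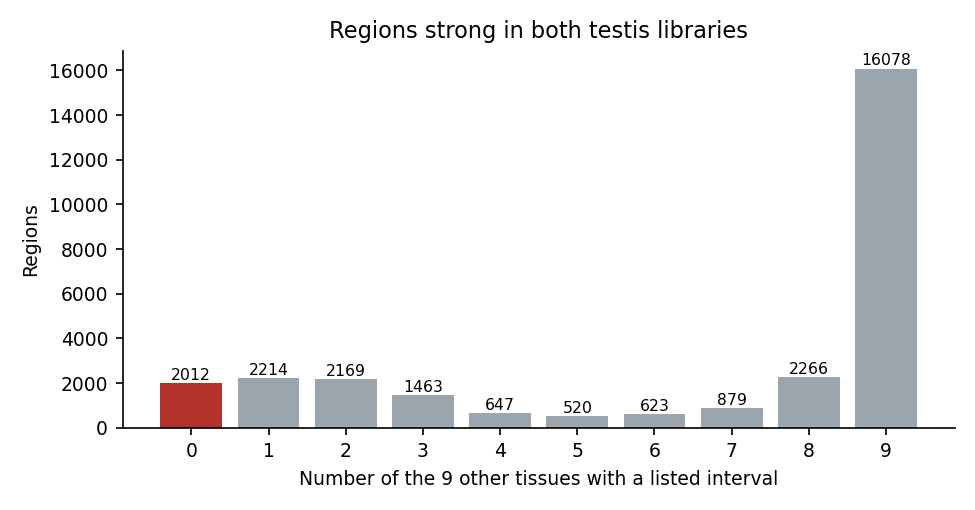
Number of regions strong in both testis libraries (vertical axis) by the number of the 9 other tissues with at least 1 listed interval (horizontal axis), with the testis-only regions in red. The counts are high at 9 tissues (16078) and lowest at 5 (520), and 2012 regions stand at 0.

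Where a single other tissue kept a region out of the testis-only group, it was mostly liver or muscle. Of the 2214 regions shared with 1 tissue, 924 (41.7%) had an interval in liver, 783 (35.4%) in muscle and 268 (12.1%) in cerebellum. The 6 cortical and striatal regions each accounted for 16 (wM1) to 97 (ofM1). A genomic region listed in more than 1 of these 6 is not in this count. The liver and muscle lists also reach down to a -log10 p of 2, while the brain lists stop at 3.30 to 12.3. These intervals were weak as a rule: liver had 280 of its 924 among its 50000 strongest, muscle 84 of 783 and cerebellum 26 of 268. In liver 161 of the 924 were listed in both animals, in muscle 149 of 783 and in cerebellum 107 of 268. The liver library of bat 1 alone excluded 428 regions, more than any other single library. That library overlapped 45% of the regions strong in testis, against 66.1% to 73.9% for the other 17 libraries.

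The testis-only regions were weaker and narrower than the rest. In bat 1 they were enriched 2.02- to 14.7-fold over the caller's background, with a median of 3.57. In bat 3 the range was 2.33 to 14.9 and the median 4.12. The 26859 regions strong in both testis libraries and also listed elsewhere had medians of 4.41 and 4.86. Taking the lower fold of the 2 animals, the median was 3.50 for testis-only regions and 3.51 to 3.71 for those shared with 1 to 8 tissues. It was 5.09 for those shared with all 9. The weaker -log10 p had medians of 8.60, 8.45 to 9.23 and 19.3 in the same order. The rule used these values, so they describe the regions and are not tested. The median width of the testis-only regions was 508 bases (177 to 2008), against 823 bases for the regions listed elsewhere. It was 534 to 1007 bases for those shared with 1 to 8 tissues and 912 for those shared with all 9. A width of 1000 bases was reached by 187 testis-only regions (9.29%). The lists of the other 18 libraries together cover 391 Mb, or 20.7% of the sequence; the part of this coverage in the width difference was not tested. Of the testis-only regions, 106 (5.27%) were among the 10000 strongest intervals of both animals, against 28.8% of all regions strong in both.

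The 2 animals gave similar but not equal strengths. Bat 3 had the higher fold in 1511 of 2012 regions (75.1%), with a median ratio of 1.15 between bat 3 and bat 1. Among all regions strong in both libraries bat 3 was higher in 68.8%, with a median ratio of 1.11. The folds of the 2 animals were within 1.5 times of each other in 90.2% of the testis-only regions, and 12 regions differed by more than 2 times. Across the regions Spearman's rho between the animals was 0.63 for fold and 0.48 for -log10 p (n = 2012 regions), against 0.81 and 0.80 over all 28871. Regions of 1 library share its depth and background, and the cut at rank 50000 narrows the range, so these are descriptions. Folds recurred at fixed values: 3.66-fold stood in 128 regions of bat 3 and 3.17-fold in 71 of bat 1, and the 20 most frequent values covered 31.4% and 25.5% of the regions.

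**Figure D2:**
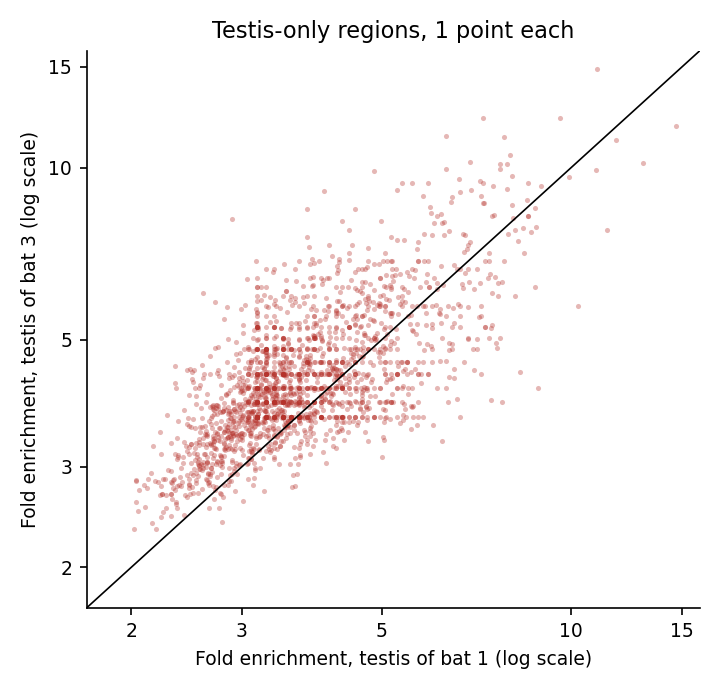
Fold enrichment of each of the 2012 testis-only regions in testis of bat 1 (horizontal, log scale) and bat 3 (vertical, log scale), 1 point per region, with the line of equal fold. More points lie above the line (1511) than below it, and the rows of points at fixed heights are folds that recur.

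The position of the summit, the base with the highest signal in an interval, was not part of the rule. Summits of the 2 animals lay a median of 33 bases apart within a testis-only region (range 0 to 947). They were within 50 bases in 1286 regions (63.9%) and within 200 bases in 1781 (88.5%). Over all regions strong in both testis libraries the median was 27 bases, with 66.5% within 50 bases. No test was made of this difference. Most held a single summit: 1284 (63.8%) in bat 1 and 1457 (72.4%) in bat 3, against 38.1% and 49% over all regions strong in both. The testis-only regions were also narrower (median 508 against 796 bases), and the part of width in this difference was not tested. Where an interval held more than 1 summit, neighbouring summits were a median of 267 bases apart in bat 1 (quartiles 220 and 326, 1045 spacings) and 262 in bat 3 (706 spacings).

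The 10 strongest testis-only regions, ordered by the weaker -log10 p of the 2 animals, were 371 to 928 bases wide, and 7 of the 10 held 1 summit in both animals. The first, on scaffold NW_023416310.1 at bases 33276 to 33832, had a fold of 14.7 and a -log10 p of 165 in bat 1, and 11.8 and 59.1 in bat 3. Its rank was 834 in bat 1 and 2105 in bat 3, and its nearest interval in another tissue was 5994 bases away. The next lay on scaffold NW_023416288.1, at bases 43585124 to 43585623 (6.92-fold in bat 1 and 10.2-fold in bat 3). The third was on the same scaffold at bases 24595840 to 24596402 (11-fold and 14.9-fold), with summits 5 bases apart. These and the following positions are on the scaffolds as the files name them, counted from 1, in a genome build not given in the sources used here.

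Of the other 7, scaffold NW_023416310.1 held another at bases 3163396 to 3164066 (7.69-fold in bat 1 and 9.94-fold in bat 3). Scaffold NW_023416311.1 held 1 at bases 1896369 to 1896752 (5.43-fold and 7.46-fold), and scaffold NW_023416284.1 held 1 at bases 180618351 to 180618721 (9.61-fold and 12.2-fold). Their distances from the nearer end of their scaffold were, in this order, 3164, 1897 and 5227 kb.

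Scaffold NW_023416306.1 carried a pair of wide ones, at bases 83026695 to 83027622 (11.8-fold and 11.2-fold) and at bases 166028776 to 166029640 (13-fold and 10.2-fold). Each had more than 1 summit in both animals. The last were at bases 176108790 to 176109215 of scaffold NW_023416295.1 (6.92-fold and 9.12-fold) and at bases 49782151 to 49782655 of scaffold NW_023416309.1 (7.82-fold and 11.3-fold). All 10 ranked between 834 and 6649 in bat 1 and between 2105 and 3997 in bat 3. Bat 3 had the higher fold in 7 of them, and bat 1 in the first, the seventh and the eighth.

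At the rank limit, members and regions that just missed the rule had nearly the same -log10 p. The 5 members nearest the rank limit had ranks of 49918 to 49954 in their weaker library, with a -log10 p of 7.57 in bat 1 or 6.11 to 6.12 in bat 3. The 5 regions just outside had ranks of 50010 to 50048 in the weaker library, with a -log10 p of 7.57 in bat 1 or 6.11 in bat 3. In bat 1, 2427 intervals shared the -log10 p of rank 50000, and 15 members had that value.

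Among regions absent from the other tissues, more were strong in 1 testis library than in both. A total of 4356 regions were strong in bat 1 only and absent from the other tissues, and 2261 of them (51.9%) were listed in bat 3 below rank 50000. Another 5527 were strong in bat 3 only, and 2434 of them (44%) were listed in bat 1 at a lower rank. The testis lists held 230146 intervals (82.5 Mb) in bat 1 and 238945 (72.2 Mb) in bat 3.

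Whether a testis-limited region found in 1 animal recurs in the other can be asked in libraries that the choice did not use. With the 10 libraries of bat 1 alone, 9218 regions were strong in testis and absent from the other 9 tissues. In bat 3, 34.8% of them were among the 50000 strongest intervals of testis, 3.21% of liver, 0.879% of muscle and at most 0.174% of any of the 7 brain regions. With the libraries of bat 3 alone, 12126 regions were chosen. In bat 1, 34.2% of these were strong in testis, 4.44% in liver, 1.11% in muscle and at most 0.148% in any brain region. Without the absence rule a larger share recurred: the 50000 strong intervals of each testis library gave 28871 regions strong in both. Testis of the other animal was highest in both readings, with a mean of 34.5% ± 0.433 (SD, n = 2) against 0.605% ± 1.23 (SD, n = 18 libraries). The tissue labels were permuted separately within each animal, which allows 100 arrangements and counts the 2 libraries of a tissue as independent. The exact one-sided p was 0.01, the smallest these permutations can give, and 0.03 after Benjamini-Hochberg adjustment over 3 such tests. The choice in 1 animal already favoured testis over the 9 other tissues, so the first place of testis was largely set in advance. This p therefore does not measure how limited to testis the regions are. Counting every deposited interval of the other animal, 70.4% and 65.9% of the regions were listed in testis, against 13.8% and 15.2% in liver and 12.4% and 13.4% in muscle.

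**Figure D3:**
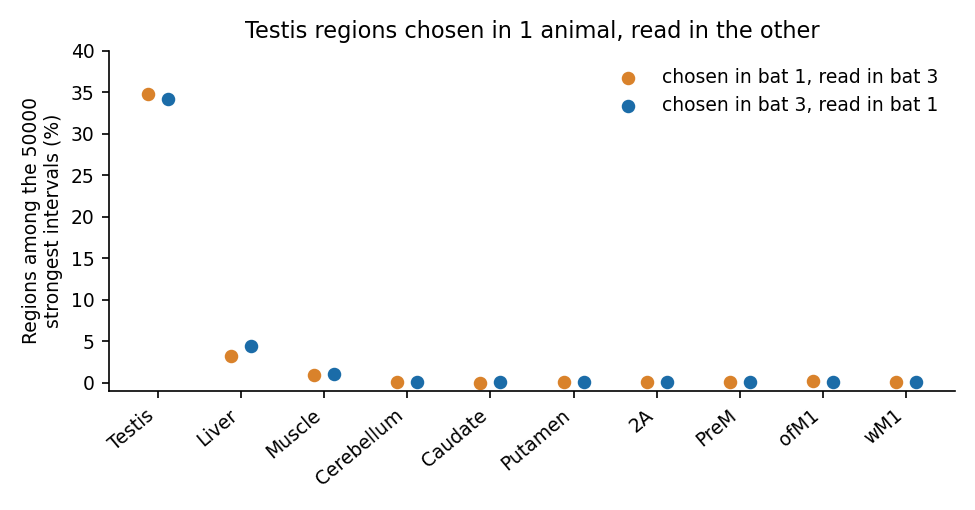
Share of regions strong in testis and absent from the other 9 tissues in 1 bat that were among the 50000 strongest intervals of each tissue in the other bat (vertical axis, percent), by tissue. Both testis points stand at 34.2% and 34.8%, liver at 3.21% and 4.44%, and the other tissues at 1.11% or less.

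Testis-only regions crowded towards the ends of scaffolds. Of the 1995 that lay on the 18 scaffolds over 20 Mb, 514 (25.8%, 95% exact binomial interval 23.9 to 27.7, counting error only) were within 5 Mb of an end. That zone holds 9.55% of the sequence and 12% of all regions strong in both testis libraries. The density was 3.64 regions per Mb in the outermost megabase and 4.11 in the next, fell to 2.18 between 2 and 5 Mb and 1.39 between 5 and 10 Mb, and was 0.809 beyond 20 Mb. Ends are taken from position 1 and from the farthest interval in any list. A scaffold end need not be a chromosome end.

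Other tissue-limited sets, chosen by the same rule, had lower shares near ends. Within 5 Mb of an end lay 2.97% of the 1956 cerebellum-only regions, 11.7% of the 1063 muscle-only regions and 14.1% of the 249 liver-only regions on these scaffolds. Cerebellum-only regions became denser inwards, from 0.306 per Mb in the outermost megabase and 0.139 in the next to 1.20 beyond 20 Mb. Muscle-only regions became sparser inwards, as testis-only regions did, from 1.00 per Mb in the outermost megabase and 0.694 in the next to 0.537 beyond 20 Mb. Regions strong in testis of a single animal and absent elsewhere, which share no region with the testis-only set, were intermediate, with 16.6% for bat 1 and 16.8% for bat 3. The share near an end fell from 0 to 3 other tissues and was higher again beyond. It was 25.8% for testis-only regions, 17.5% for those shared with 1 tissue, 10.8% with 2 and 6.92% with 3. It was 11.6% to 14.1% for those shared with 4 to 8 and 9.96% for those shared with all 9. These shares are descriptions, with no test between the sets.

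The strongest testis-only regions were the most often near an end. In 10 groups of 199 or 200 regions by the weaker -log10 p, 17.5% of the weakest group were within 5 Mb and 37% of the strongest. The groups between held 18.6% to 33.2%, and among the 50 strongest 21 of the 49 on these scaffolds (42.9%). All regions strong in both testis libraries divided likewise, showed 11.9% in the weakest group and 8.52% in the strongest. Near the ends the testis-only regions had a median -log10 p of 14.5 in bat 1 and 9.64 in bat 3, against 12.6 and 8.75 farther in. Their folds went the other way, with medians of 3.38 and 3.89 near the ends against 3.67 and 4.12 farther in, and they were wider (624 against 472 bases). Lower folds near the ends were also seen over all regions strong in both testis libraries, with medians of 3.89 and 4.35 against 4.39 and 4.82. The median widths of that larger set were 779 bases near the ends and 799 farther in. With ranking by fold in place of -log10 p the share near ends was 18.3% of 1933 regions, against 9.96% of the regions strong in both by that ranking. The lists of the other 18 libraries covered 19.1% of the sequence within 5 Mb of an end and 20.9% beyond. The part of coverage in this profile was not tested.

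The excess was spread over most scaffolds but not all ends. Of the 36 ends, 29 held more testis-only regions in 5 Mb than the mean of their scaffold. Scaffold NW_023416307.1 had 30 in its last 5 Mb against a scaffold mean of 5.54, and NW_023416308.1 had 25 in its first against 4.31. NW_023416310.1 had 24 in its first 5 Mb and 3 in its last. All regions strong in both testis libraries numbered 126 in that last 5 Mb of NW_023416307.1 (14.8 per Mb over the scaffold). They numbered 131 in the first 5 Mb of NW_023416308.1 (15.6 per Mb), and 116 and 61 at the start and end of NW_023416310.1 (14.8 per Mb). Ends without an excess included the start of NW_023416292.1, with 1 against a mean of 8.03, and both ends of NW_023416288.1, with 4 and 6 against 7.24. There the regions strong in both numbered 75 (18.2 per Mb over the scaffold), and 79 and 63 (16.9 per Mb). At these named ends the 2 sets thus varied in the same direction, and the part of this background in the differences between ends was not tested.

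The same direction was seen in whole testis lists. Of the 50000 strongest intervals, 11.7% in bat 1 and 11.9% in bat 3 were within 5 Mb of an end, above all 18 other libraries (5.75% in cerebellum of bat 3 to 11% in ofM1 of bat 1, median 9.49%). The testis mean was 11.8% ± 0.188 (SD, n = 2) and that of the others 8.72% ± 1.85 (SD, n = 18). The difference was 3.08 percentage points. Over the same 100 arrangements the exact 2-sided p was 0.04, or 0.05 after Benjamini-Hochberg adjustment over the 3 tests, which does not pass 0.05. These arrangements too count the 2 libraries of a tissue as independent. Within 2 Mb of an end the shares were 5.51% and 5.44% in testis against 2.24% to 4.71% elsewhere, with an exact permutation p of 0.01. These distances were chosen after the values were seen. Without the intervals of the testis-only regions the testis shares were 11.1% and 11.3%, still above every other library, and the exact permutation p was 0.07.

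**Figure D4:**
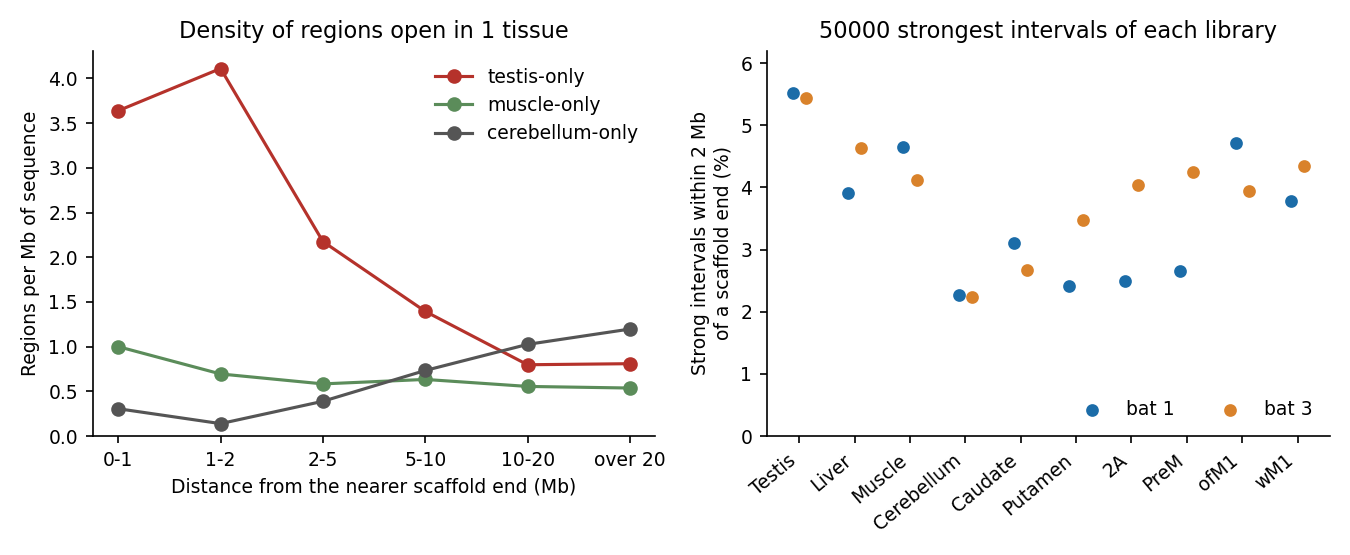
Left, density of testis-only, muscle-only and cerebellum-only regions (regions per Mb of sequence) by distance from the nearer scaffold end; right, share of the 50000 strongest intervals within 2 Mb of an end (percent) in each library, by tissue and bat. Testis-only regions fall from 4.11 per Mb to 0.809, and both testis libraries (5.51% and 5.44%) lie above the other 18.

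The regions were also unevenly shared among scaffolds. They fell on 21 of the 29 scaffolds in the lists. On scaffolds over 20 Mb their density ran from 0.113 per Mb on NW_023416312.1 to 2.47 per Mb on NW_023416293.1, which at 22.3 Mb is the shortest of the 18. Scaffolds of 46.1 to 94.2 Mb held 1.35 to 1.61 per Mb, and those of 96 to 186 Mb, other than NW_023416312.1, held 0.831 to 1.11 per Mb. On NW_023416293.1 the 55 testis-only regions were 13.3% of the regions strong in both testis libraries, against 3.28% to 9.49% on the other 17.

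**Figure D5:**
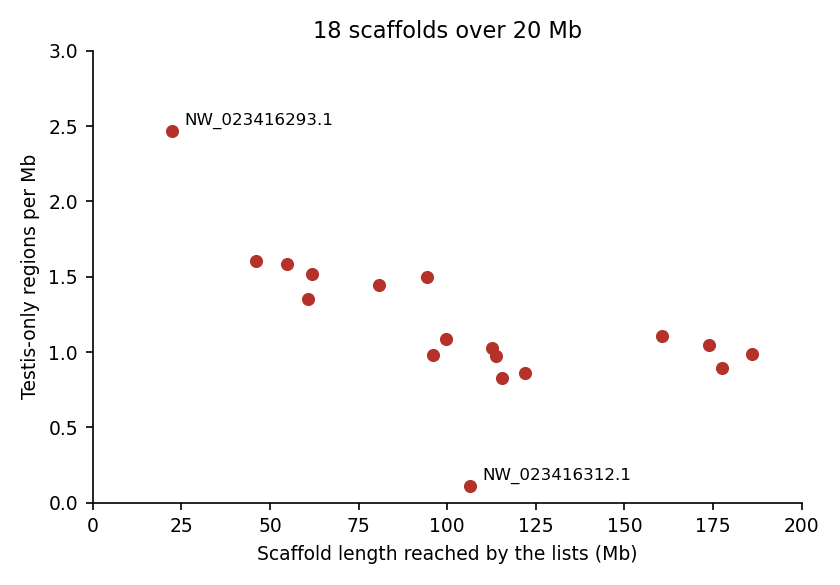
Testis-only regions per Mb (vertical axis) against the length of each of the 18 scaffolds over 20 Mb as reached by the peak lists (horizontal axis, Mb), 1 point per scaffold. NW_023416293.1 is highest at 2.47 and NW_023416312.1 lowest at 0.113, below all others (0.831 or more).

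Scaffold NW_023416312.1 was nearly empty of testis-only regions. It reached 106 Mb, 5.62% of the sequence, and held 12 of the 2012 regions (0.596%, 95% exact binomial interval 0.309 to 1.04, counting error only). It held 1.27% of all regions strong in both testis libraries. By the same rule for other tissues it held 159 of 1957 cerebellum-only regions (8.12%), 31 of 1064 muscle-only regions (2.91%) and 1 of 249 liver-only regions (0.402%). The 12 regions were of ordinary strength, with 3.27- to 5.17-fold enrichment in bat 1 and 3.66- to 6.18-fold in bat 3. The first of them, at bases 9997340 to 9997787, had 5.17- and 6.18-fold enrichment, and the last, at bases 104990147 to 104991228, had 3.27- and 5.04-fold. Which chromosome the scaffold belongs to was not analysed here.

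Both testis lists were also low on this scaffold, and with every deposited interval counted the liver and muscle lists were low too. It held 1.06% of the 50000 strongest intervals in bat 1 and 0.972% in bat 3, against 1.39% to 3.09% in 17 of the other libraries and 0.24% in liver of bat 1. The testis mean was 1.02% ± 0.0622 (SD, n = 2) and that of the others 2.01% ± 0.632 (SD, n = 18), a difference of -0.999 percentage points. The exact 2-sided permutation test gave p = 0.05, and 0.05 after the adjustment over 3 tests, which does not pass the threshold of 0.05. This scaffold was chosen after its values were seen. Without liver of bat 1 the difference was -1.10 percentage points, and the exact 2-sided permutation test over 90 arrangements gave p = 0.022. Without the testis-only regions the difference was -0.982 percentage points (exact permutation p = 0.08). Of every deposited interval, the scaffold held 0.514% and 0.539% in testis of bats 1 and 3, 0.124% and 0.753% in liver, 0.706% and 1.15% in muscle, and 1.81% to 2.73% in the 14 brain libraries.

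Few testis-only regions lay within 10 kb of each other, and most lay within 1000 bases of an interval listed in another tissue. The median gap to the next testis-only region was 469 kb. Of 1991 neighbouring pairs, 60 were less than 10 kb apart and 381 less than 100 kb. These gaps were not compared with random placement. The nearest interval of any other tissue was a median of 647 bases away (2 to 16382), within 100 bases for 158 regions, within 1000 bases for 1327 (66%) and over 5000 bases for 34. The 20 lists together form 856519 separate regions, and this distance was not measured from other places. Such closeness is therefore not shown to be particular to testis-only regions. In the 10 kb on either side of a testis-only region there were on average 0.665 other strong intervals in testis of bat 1 and 0.613 in testis of bat 3, against 0.468 to 0.573 in the 18 other libraries. Around all regions strong in both testis libraries the testis values were 0.670 and 0.615 and the others 0.536 to 0.678. The regions were chosen on intervals of the same libraries, so this is a description.

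A few stretches held several. The most testis-only regions within 100 kb was 5, on scaffold NW_023416288.1 at bases 48295195 to 48371325. The first of the 5, 752 bases wide, was enriched 7.46-fold in bat 1 but 3.92-fold in bat 3, and the other 4 were at 2.70- to 3.55-fold in bat 1 and 3.33- to 4.94-fold in bat 3. Of the places with 4, the first 2 in scaffold order were both on NW_023416284.1, 1 near each end. At bases 1164496 to 1259824 the folds were 2.35 to 3.86 in bat 1 and 2.80 to 4.50 in bat 3. At bases 185051829 to 185145207 they were 2.96 to 6.79 and 3.04 to 7.61.

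Absence from the other lists is limited by how far down those lists go. The weakest -log10 p a list held ranged from 2 in the liver and muscle lists to 12.3 in caudate of bat 1. In that list, 1581 of the testis-only regions had a weaker testis -log10 p below what it could hold, in 2A of bat 1 1012, in ofM1 of bat 3 842, in 3 further brain lists 167 to 219, and in the other 12 lists 0. The values are each library's own and are not scaled to each other. Restricted to the 431 regions whose weaker -log10 p exceeded every one of these limits, 33.1% of the 429 on large scaffolds were within 5 Mb of an end, and 1 lay on NW_023416312.1 (0.232%). These 431 are also the strongest testis-only regions, and the share near ends was higher among strong ones (37% in the strongest of the 10 groups). This share therefore does not separate the list limits from strength.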

How the data were processed

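The authors deposited 1 peak list per ATAC-seq library in the narrowPeak layout, and Bowtie2 and MACS2 are named, without roles, per the submitters' processing notes. The sources used here do not name the settings or the genome build. Each deposited row holds the authors' fold enrichment (a ratio to background), -log10 p, -log10 q and a summit. Lists held up to 300000 rows, a number reached by 15 of 20. No read depth goes with them, so the depth behind a peak is unknown.

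Rows with the same interval were collapsed, keeping the row with the highest -log10 p. Overlap was at least 1 base, and touching intervals were merged. Shares of each library were compared by exact permutation of the tissue label within each animal, since libraries with the same bat number come from the same animal. With 1 library per tissue and animal, p-values measure the spread between these libraries. Labels moved separately in each animal, so the 2 libraries of a tissue count as independent. With the tissue as the unit, 10 tissues would allow no p under 0.1. Python 3.11.15, pandas 2.3.3 and scipy 1.17.1 were used, and the overlap search was checked on simulated lists.

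The members, gene lists and tests were chosen with earlier results of these data known. Scaffold ends and single scaffolds were added after the data were seen. Named regions are the 10 with the highest weaker -log10 p, the 5 on each side of the rank limit and the 3 densest stretches of 100 kb. The first and last regions of NW_023416312.1 are also named, chosen after their values were seen. The planned comparisons with gene starts, gene bodies, gene lists and promoter motifs were not run, because the RefSeq gene table of assembly mRouAeg1.p names no scaffold. The 12 RNA-seq libraries, all of brain regions, were not used. Alternatives were other numbers of strong intervals, ranking by fold, 50% reciprocal overlap, a looser absence, and each testis library or liver of bat 1 left out.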

Additional observations from a re-analysis of the deposited data

How the results depend on the processing

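The number of testis-only regions depends on the thresholds: 723 with the 25000 strongest intervals, 5197 with 100000, 4803 with 50% reciprocal overlap (which loosens absence too), 7229 when only strong intervals elsewhere count, 431 above every other list's limit (added after seeing the data), and 6528 to 8017 with 1 testis library alone, where no recurrence is asked. Ranking by fold gave 1933 and leaving out liver of bat 1 gave 2440. The share within 5 Mb of a scaffold end was, in the same order, 31.9%, 21.7%, 19%, 16.3%, 33.1%, and 19.3% to 19.6%, with 18.3% by fold and 24.1% without liver of bat 1. In each setting it exceeded the share among the strong testis regions that the setting started from (9.96% to 12.3%). The share on NW_023416312.1 was 0.277% with 25000 intervals, 0.481% with 100000, 0.673% by fold, 0.291% with reciprocal overlap, 0.235% with the looser absence, 0.232% above every limit, 0.437% to 0.628% with 1 testis library alone and 0.492% without liver of bat 1. The median summit distance was 25 bases when the nearest pair of summits was taken.

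All alternatives for scaffold ends and NW_023416312.1 were chosen after seeing the data. The planned ones for gene starts and gene bodies were not run, since no gene has a scaffold. For whole lists, the testis excess near ends was 3.57 percentage points within 10 Mb (exact permutation p = 0.06), 2.93 with every deposited interval (p = 0.11, exact) and 2.48 without the testis-only regions (p = 0.07, exact). It was 2.74 to 3.42 with 1 animal alone, where no p under 0.1 is possible. On NW_023416312.1 the difference was -1.44 with every deposited interval (exact permutation p = 0.03), -1.10 without liver of bat 1 (p = 0.022, exact), -0.982 without the testis-only regions (p = 0.08, exact), and -1.04 to -0.953 with 1 animal. The recurrence of regions chosen in 1 animal gave a difference of 43.2 points with 25000 intervals and 63.5 with every deposited interval, and 33.5 to 34.3 with 1 animal alone, where no p under 0.1 is possible. With labels permuted over all 20 libraries in place of the replicate block by animal, the exact p was 0.0053 for the recurrence (33.9 points), 0.032 for the ends (3.08) and 0.042 for NW_023416312.1 (-0.999). This permutation also counts the 2 libraries of a tissue as independent. For the recurrence, the choice in 1 animal already favoured testis, so its p does not measure how limited to testis the regions are. The cause of these shifts was not tested. Absence is limited by where each list stops, and the depth behind the lists is unknown.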
